A study of Mus musculus with 6 samples.

Results

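Expression of 10 adhesion genes was examined in CCR6+ group 3 innate lymphoid cells (ILC3s) of the mouse small intestine: Alcam, its ligand gene Cd6, and 8 further genes of immunoglobulin family adhesion molecules, Mcam, Bcam, L1cam, Ncam1, Cadm1, Crtam, Cd96 and Cd226. The genes were chosen from a named list of this family after Alcam had stood out in the comparison described here, so their values in that comparison are given as a description without a test. All 10 were found among the 19938 genes measured, each by 1 probe set of the array, a group of probes summarised to a single value. The cells were sorted from the lamina propria of C57BL/6 mice, whose age the labels do not give. Control mice carried floxed Tnfsf11 alleles (Tnfsf11fl/fl), and RANKL-deficient mice carried the same alleles with a Cre, with 3 arrays in each group. Tnfsf11 encodes RANKL, a cytokine of the TNF superfamily. Control mice had no Cre named in their labels, so Cre and the deletion cannot be told apart.

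Cell adhesion molecules of the immunoglobulin superfamily carry extracellular immunoglobulin domains that bind the same molecule, another family member or a matrix protein on the opposite side of a contact. ALCAM (CD166) binds itself and CD6, a scavenger receptor family protein of lymphocytes. MCAM and BCAM bind laminins, L1CAM and NCAM1 were first studied in nerve cells, CADM1 is the ligand of CRTAM, and CD96 and CD226 share the poliovirus receptor PVR as a ligand. In gut lymphoid tissue such contacts hold lymphocytes to stromal, epithelial and antigen-presenting cells.

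Alcam, Mcam, Ncam1 and Cd96 were the 4 genes whose groups did not overlap, each lower on every RANKL-deficient array than on any control array, as were 9.08% of all genes. Promoters of Alcam, Mcam and Cd96 are shown because these members were lower together, so that the stretches before their starts can be compared. The RefSeq table matched 5 of the 10 genes (Alcam, Mcam, Bcam, L1cam and Cd96) and not Cd6, Ncam1, Cadm1, Crtam or Cd226. Each sequence is the 250 bases before the RefSeq start in GRCm38.p6, written 5′ to 3′ along the gene, with motif matches in capitals. They lie at chr16:52453082-52453331 (minus strand) for Alcam, chr9:44134408-44134657 (plus strand) for Mcam and chr16:46120249-46120498 (minus strand) for Cd96.
Alcam: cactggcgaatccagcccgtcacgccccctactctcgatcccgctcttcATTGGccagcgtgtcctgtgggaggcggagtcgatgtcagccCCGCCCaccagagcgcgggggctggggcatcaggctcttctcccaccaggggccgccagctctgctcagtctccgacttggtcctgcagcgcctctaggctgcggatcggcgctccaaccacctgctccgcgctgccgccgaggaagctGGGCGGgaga
Mcam: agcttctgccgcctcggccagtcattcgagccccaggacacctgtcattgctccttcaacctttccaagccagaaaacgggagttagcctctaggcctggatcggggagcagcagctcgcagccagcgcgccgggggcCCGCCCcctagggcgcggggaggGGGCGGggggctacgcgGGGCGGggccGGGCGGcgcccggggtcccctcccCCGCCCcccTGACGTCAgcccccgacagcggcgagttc
Cd96: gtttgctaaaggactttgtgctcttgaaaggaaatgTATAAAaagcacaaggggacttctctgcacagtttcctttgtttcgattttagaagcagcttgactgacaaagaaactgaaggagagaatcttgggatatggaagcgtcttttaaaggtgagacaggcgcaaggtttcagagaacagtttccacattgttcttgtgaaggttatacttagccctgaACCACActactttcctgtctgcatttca

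The 3 stretches differed in base composition. The Alcam stretch was 69.2% G or C with 22 CpG dinucleotides, and the Mcam stretch 73.6% with 25, against medians of 52.4% and 6 over the 32851 promoter stretches of the table. Cd96 had a stretch of 41.2% with 3 CpG dinucleotides. Bcam, whose groups overlapped, resembled Alcam, with 70.0% and 22. L1cam, whose groups also overlapped, had 69.6% with 20 and 63.2% with 12 at its 2 starts. Alcam, Mcam and Cd96 thus did not share a CpG-rich stretch, and Ncam1 had no stretch to compare. Motifs were searched on both strands, and no matches of different motifs overlapped. The GC box GGGCGG, bound by SP and KLF factors, matched at 2 places in Alcam (-159 to -154 and -10 to -5 from the start) and at 5 in Mcam, and in 32.7% of all stretches. The CCAAT box (CCAAT) matched in Alcam at -201 to -197 and in 33.8% of all stretches. The cyclic AMP response element TGACGTCA, its own reverse complement, matched in Mcam at -29 to -22 and in 1.55% of all stretches. In Cd96 the RUNX motif TGTGGT matched at -28 to -23 (14.0% of all) and the TATA box TATAAA at -214 to -209 (12.4% of all). A match describes letters and is not a binding site.

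On the log2 scale, medians were 5.12 to 5.15 for the control and 5.07 to 5.10 for the RANKL-deficient arrays. Every control median lay above every RANKL-deficient median. The median difference between groups was -0.054 over all genes and 0.033 over those above the median level. By correlation, 2 arrays stood apart from the rest. Control array 1 had a mean correlation of 0.960 with the other arrays across genes and control array 2 one of 0.970, against 0.975 to 0.977 for the other 4. By limma's array weights, control array 1 (0.45) and control array 3 (0.60) lay below the other 4 (1.32 to 1.47). By weight, control array 2 thus did not stand apart. The SD across genes was 1.86 on control array 1 and 1.93 on control array 2, against 1.99 to 2.01 on the other 4. The part of this narrower spread in the differences was not tested. Differences of the 10 genes are also given without control arrays 1 and 2, which leaves control array 3 against 3 arrays. For the 4 genes with the smallest unadjusted p in each adhesion list further on, that value is given where it moves the difference by over 1.5 times. Tnfsf11 measured 8.76, 8.41 and 8.25 in the control arrays and 8.36, 8.65 and 8.52 in the RANKL-deficient arrays. Where its probes lie with respect to the deleted exons is not given in the sources used here, so these values do not check the labels. Of the ILC3 markers, 7 of 10 were measured and 3 were not analysed here, with list means of 9.96 to 10.37 in control and 10.34 to 10.42 in RANKL-deficient arrays. Cd4, carried by a subset of these cells, was the 1 ILC3 marker with an unadjusted p under 0.05. It measured 8.19, 8.79 and 8.93 in control and 9.27, 9.19 and 9.50 in RANKL-deficient arrays, without overlap, a difference of 0.69 (SE 0.21, limma adjusted p = 0.523). Its part in the Alcam difference and in those of the other genes was not tested. The gating marker Ccr6 measured 9.13 ± 0.62 (SD, n = 3) and 9.45 ± 0.15 (SD, n = 3).

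Alcam was lower in RANKL-deficient cells. It measured 7.78, 8.21 and 8.01 in the control arrays and 6.88, 7.14 and 7.15 in the RANKL-deficient arrays. The lowest control array lay above the highest RANKL-deficient array, and the gap between groups was wider than the range within either. The group means were 8.00 ± 0.21 (SD, n = 3) and 7.06 ± 0.15 (SD, n = 3), a log2 difference of -0.95 (SE 0.16), or 1.93-fold. Of all genes, 90 had a lower difference. Alcam differed by -0.96 without control arrays 1 and 2 and by -1.05 to -0.84 when any 1 array was left out. In sorted cells measured in bulk, fewer cells with Alcam RNA and less of it in each cell cannot be told apart.

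**Figure D1:**
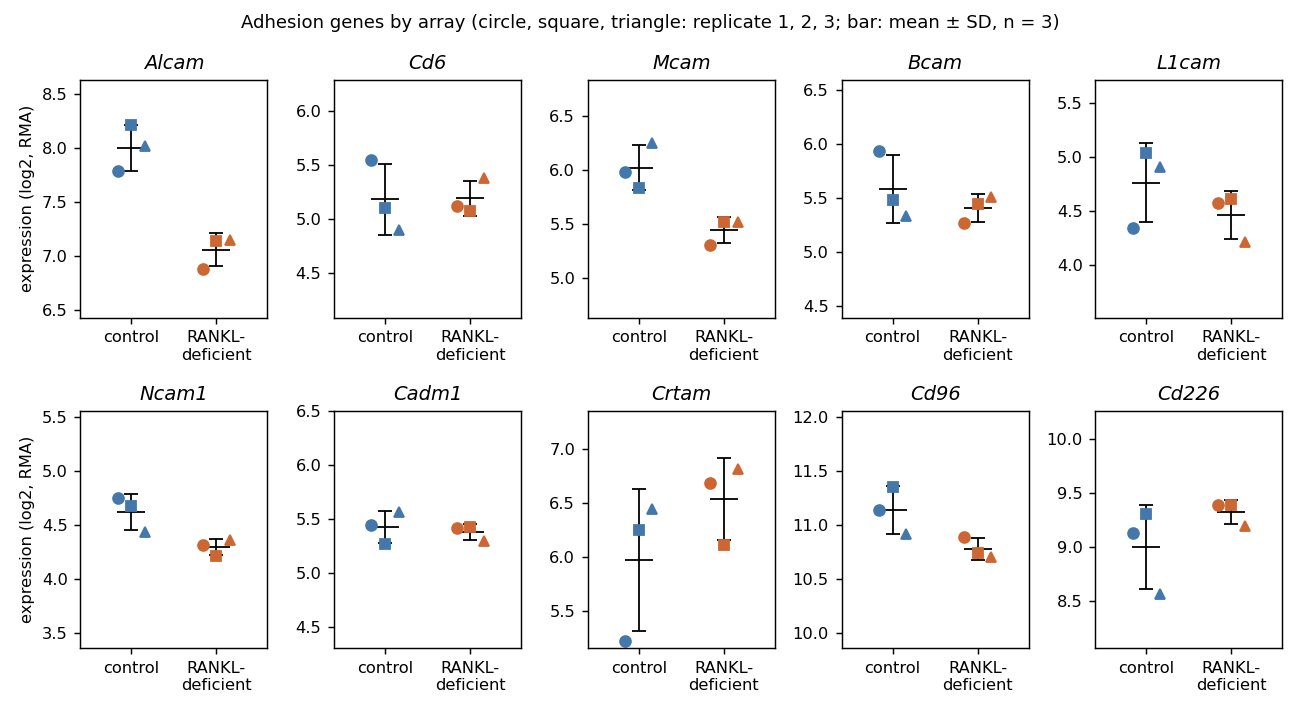
Expression (log2, RMA) of the 10 adhesion genes on each array, control in blue and RANKL-deficient in orange, with symbols for replicates and bars for mean ± SD; every panel spans the same log2 range. Alcam, Mcam, Ncam1 and Cd96 have all orange points below all blue points, and Crtam has a control array at 5.22 far below the rest.

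Macrophages, dendritic cells and epithelial cells are among the cells that can carry ALCAM and could be present in the gate, so their markers were measured. Whether the other listed cell types carry ALCAM was not examined here. The 8 macrophage and dendritic cell genes had a summed level (log2 of the sum of linear values) of 8.41 to 8.70 in control and 8.29 to 8.83 in RANKL-deficient arrays. The 8 epithelial genes had 8.68 to 9.11 and 8.16 to 9.22. Both ranges overlapped between groups. Marker lists of 3 other cell types ran lower on every RANKL-deficient array than on any control array, as Alcam did: the mast cell genes (5 genes, 6.07 to 6.27 in control and 5.84 to 6.00 in RANKL-deficient arrays) and the endothelial and stromal and the enteric neuron and glia genes given below. The mast cell genes each overlapped between groups, with both group means below the median gene. The enteric neuron and glia ranges nearly met, at 6.750 in control and 6.746 in RANKL-deficient arrays. Of single genes, 9.08% lay lower without overlap. The part of these 3 lists in the Alcam difference was not tested. None of the 16 macrophage, dendritic cell and epithelial genes passed the adjusted threshold by limma, and among them the macrophage gene Adgre1 alone had an unadjusted p under 0.05, in the lower direction. No marker could be read as absent, since the arrays give no zero.

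Cd6, the ligand gene, did not follow Alcam. It measured 5.54, 5.10 and 4.90 in control and 5.12, 5.07 and 5.37 in RANKL-deficient arrays. The RANKL-deficient values lay inside the control range. The difference was 0.0083 (SE 0.19), and its sign turned in 3 of the 16 alternatives, all of which left out 1 array. The block, filter, probe set and moderation alternatives among the 16 could not change it. Without control arrays 1 and 2 it was 0.29.

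The laminin receptor gene Mcam, which codes for CD146 of vessel walls and some lymphocytes, was lower as well. Its control values were 5.98, 5.83 and 6.24 and its RANKL-deficient values 5.30, 5.51 and 5.51. The groups did not overlap, with means of 6.02 ± 0.21 (SD, n = 3) and 5.44 ± 0.12 (SD, n = 3). The difference was -0.58 (SE 0.15), or 1.49-fold, and -0.80 without control arrays 1 and 2. The summed level of the 9 endothelial and stromal genes ran lower, at 9.78 to 10.17 in control and 9.57 to 9.63 in RANKL-deficient arrays. Of the 9, 0 had an unadjusted p under 0.05 (limma), and Cdh5 alone did not overlap between groups. Col3a1 alone had a higher mean in RANKL-deficient arrays, with a difference of 0.098. The part of these genes in the Mcam difference was not tested.

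Bcam, the Lutheran glycoprotein, showed no such separation. It measured 5.93, 5.48 and 5.33 in control and 5.26, 5.44 and 5.51 in RANKL-deficient arrays. Control array 1 alone lay clearly above the others. The difference of -0.18 (SE 0.18) went to 0.0012 without that array and to 0.075 without control arrays 1 and 2.

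Among the nerve cell adhesion genes, Ncam1 was lower with a small difference. Its values were 4.75, 4.67 and 4.43 in control and 4.31, 4.21 and 4.36 in RANKL-deficient arrays. The closest arrays of the groups nearly met. Its means were 4.62 ± 0.17 (SD, n = 3) and 4.29 ± 0.072 (SD, n = 3), a difference of -0.32 (SE 0.13), and -0.13 without control arrays 1 and 2. L1cam measured 4.34, 5.04 and 4.90 in control and 4.57, 4.61 and 4.21 in RANKL-deficient arrays. Control array 1 lay among the RANKL-deficient values, and the difference of -0.30 (SE 0.22) was -0.51 when that array was left out, -0.16 when control array 2 was and -0.17 when RANKL-deficient array 3 was. Without control arrays 1 and 2 it was -0.44. Both group means of Ncam1 and of L1cam lay below the median gene (5.12), and no background level was measured. With other scalings of the arrays, Ncam1 differed by -0.27 to -0.22 and L1cam by -0.25 to -0.20. Their differences could be understated or overstated. The 4 measured markers of enteric neurons and glia had a summed level of 6.75 to 7.32 in control and 6.40 to 6.75 in RANKL-deficient arrays, and the glial gene S100b differed by -1.01 (adjusted p = 0.579, limma). Of the 4, S100b alone did not overlap between groups, and Sox10, Elavl4 and Tubb3 differed by -0.091, -0.24 and -0.29 with overlap. The part of these markers in the Ncam1 and L1cam values was not tested.

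The receptor and ligand pair Crtam and Cadm1 had unlike values. CRTAM appears on activated T and natural killer cells and binds CADM1 on other cells. Crtam measured 5.22, 6.26 and 6.45 in control and 6.69, 6.11 and 6.82 in RANKL-deficient arrays. The groups overlapped, and control array 1 lay far below the other 5. The difference of 0.56 (SE 0.35) rested on that array, at 0.19 without it and 0.091 without control arrays 1 and 2. Its pooled SD of 0.54 was the widest of the 10 genes, above that of 93.0% of all genes. Cadm1 measured 5.44, 5.27 and 5.57 in control and 5.42, 5.42 and 5.29 in RANKL-deficient arrays, which overlapped. It had the smallest pooled SD of the 10 (0.12), and its difference of -0.049 (SE 0.13) changed sign with median centring (0.0018), with array weights (0.0052) and without control array 3 (0.022).

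The PVR receptors CD96 and CD226 compete for the same ligand on T and natural killer cells, CD226 as an activating receptor. Cd96 measured 11.14, 11.35 and 10.92 in control and 10.89, 10.74 and 10.70 in RANKL-deficient arrays. The groups did not overlap, but control array 3 lay just above RANKL-deficient array 1. The means were 11.14 ± 0.22 (SD, n = 3) and 10.78 ± 0.10 (SD, n = 3), a difference of -0.36 (SE 0.15). Without control arrays 1 and 2 it was -0.14. Cd226 went the other way, at 9.13, 9.31 and 8.56 in control and 9.39, 9.39 and 9.20 in RANKL-deficient arrays. The groups overlapped, and control array 3 alone lay well below the rest. The difference of 0.33 (SE 0.21) was 0.11 without that array, but 0.76 when it was the only control array kept.

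T cells and natural killer cells carry several of these receptors. The 8 measured T cell markers had a summed level of 7.85 to 8.76 in control and 7.61 to 7.95 in RANKL-deficient arrays. Over the 8 genes the median difference was -0.019. Cd3g, a chain of the T cell receptor complex that ILC3s can also transcribe, differed by -1.91 and Cd3e by -0.70 (adjusted p = 0.408 and 0.618, limma), while Cd3d differed by 0.26, Cd5 by -0.18 and Cd8a, Cd8b1, Cd28 and Themis by -0.028 to -0.0029. The 8 natural killer and ILC1 markers had 7.38 to 7.85 and 7.30 to 7.45, and Ncr1 differed by -0.93 (adjusted p = 0.597). The part of these cells in the Cd96, Cd226, Crtam and Cd6 values was not tested.

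**Figure D2:**
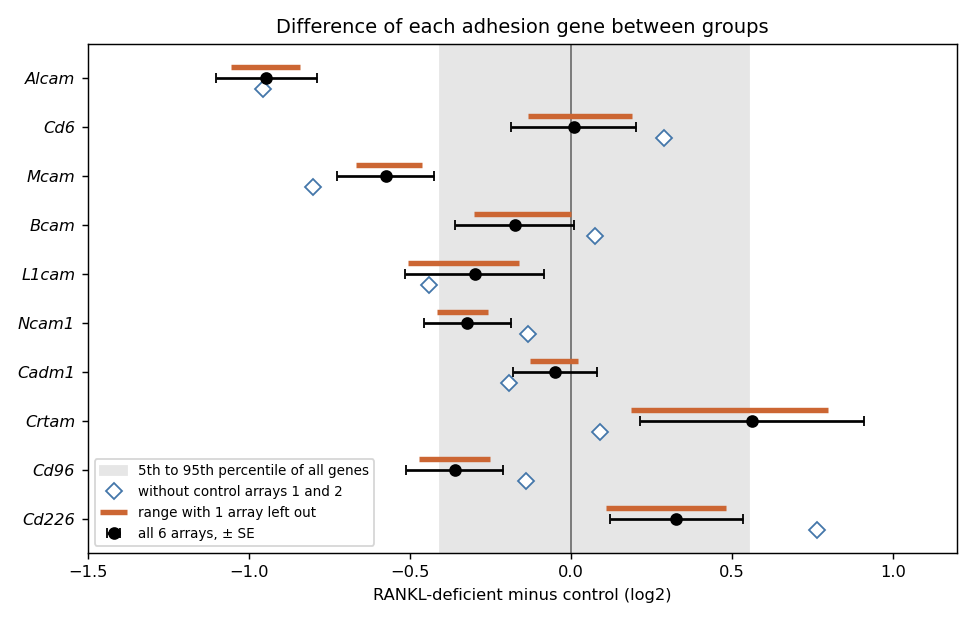
Difference between group means (RANKL-deficient minus control, log2) for the 10 genes, as points ± SE; orange bars give the range with 1 array left out, open diamonds the value without control arrays 1 and 2, and the grey band the 5th to 95th percentile of all genes (-0.41 to 0.55). Alcam and Mcam lie left of the band in all 3 measures, and Crtam falls to 0.091 without the 2 control arrays.

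Over the 10 genes, 7 had a lower and 3 a higher mean in RANKL-deficient cells, where 60.5% of all genes had a lower mean. The median difference was -0.24, against -0.054 over all genes. The groups did not overlap for 4 of the 10 in the lower and 0 in the higher direction, where the shares over all genes were 9.08% and 5.28%. Since these genes were chosen with this comparison known, nothing is read from these counts. The pooled SDs within groups ran from 0.12 to 0.54 around a median of 0.21 over all genes. The highest value fell on control array 1 for 3 genes, on control array 2 for 3 and on control array 3 for 2.

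The genes whose values over the 6 arrays were nearest to Alcam, after centring each on its mean, were Sumf1, Maged1, Cep85l, Zfp322a and Tdp1. Likeness was the root mean square difference over the 6 arrays, among 9968 genes above the median level. It was 0.14 for Sumf1, an enzyme that activates sulfatases, and 0.15 for Maged1, a MAGE family protein, against a median of 0.57. Cep85l, Zfp322a and Tdp1, a DNA repair enzyme, had 0.17, 0.17 and 0.18. By the choice, all 5 shared the lower RANKL-deficient values, as with Sumf1 at 5.71, 6.50 and 5.95 in control and 4.93, 5.40 and 5.20 in RANKL-deficient arrays. None of the other 9 adhesion genes was among them, though Ncam1 and L1cam, below the median level, were not compared.

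The measured protein-coding genes next to Alcam on its chromosome were compared by limma, as genes that played no part in choosing the members and that were outside the planned naming rule. Of all genes measured, 1 passed the adjusted threshold (0.00502%), and 0 of the 6 neighbours did. Cblb, a ubiquitin ligase that restrains lymphocyte activation and the nearest on one side, measured 9.29 ± 0.38 (SD, n = 3) and 9.59 ± 0.18 (SD, n = 3), a difference of 0.29 (SE 0.21, limma adjusted p = 0.725). On the other side, Zpld1 differed by 0.056 (SE 0.13, adjusted p = 0.917). Nfkbiz, an atypical inhibitor of NF-kB, differed by 0.40 (SE 0.22, adjusted p = 0.679). Ccdc54 had the lowest difference of the 6 at -0.46 (SE 0.16), with an unadjusted p of 0.022 and an adjusted p of 0.572. Bbx and Nxpe3 differed by -0.13 and -0.28. No neighbour had a difference as low as that of Alcam, which was itself chosen for its difference, so nothing is read from this.

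**Figure D3:**
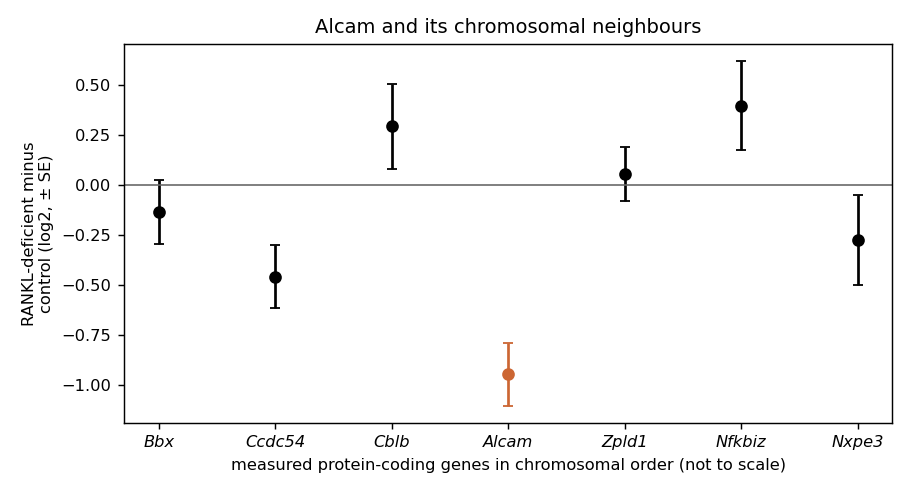
Difference between group means (RANKL-deficient minus control, log2, ± SE) for Alcam, in orange, and the 3 nearest measured protein-coding genes on each side, in chromosomal order. Alcam lies at -0.95, while the neighbours lie between -0.46 and 0.40.

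The question of whether other genes of the same systems differed was put to 75 measured genes in 6 lists, written with earlier results of these data known. By limma, 0 of the 75 passed the adjusted threshold in either direction. An unadjusted limma p under 0.05 held for 3 in the higher and 3 in the lower direction, against 4.25% and 3.90% of all genes. The groups did not overlap for 6 of the 75 in the higher and 6 in the lower direction, with 5.28% and 9.08% over all genes. Since the lists were written with results known, nothing is read from these counts.

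Among 9 genes for partners of ALCAM and CD6, the median difference was 0.19, and 6 had higher means. Sdcbp codes for syntenin, which binds the CD6 tail. It measured 9.98, 9.44 and 10.21 in control and 10.34, 10.35 and 10.45 in RANKL-deficient arrays. The difference of 0.50 (SE 0.21, limma adjusted p = 0.606) was 0.17 without control arrays 1 and 2. Lgals8, a galectin that binds ALCAM, differed by 0.53 (adjusted p = 0.614), and the actin linkers Rdx and Ctnna1 by -0.53 and -0.29 (adjusted p = 0.618 and 0.687). Leaving out control array 2 moved Lgals8 to 0.31, Rdx to -0.34 and Sdcbp to 0.28. Ctnna1 went to -0.44 without RANKL-deficient array 1, to -0.17 without RANKL-deficient array 2 and to -0.14 without control arrays 1 and 2. None of these passed, and the actin linkers Ezr and Msn had small positive differences of 0.20 and 0.19.

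Ligands and receptors of the nectin, PVR and CADM system were measured for 9 of 11 genes, with a median of -0.063 and no gene at an unadjusted p under 0.05. The shared ligand gene Pvr measured 5.61 ± 0.16 (SD, n = 3) and 5.64 ± 0.038 (SD, n = 3). Tigit, the third PVR receptor of lymphocytes, measured 5.60 ± 0.19 (SD, n = 3) and 5.54 ± 0.22 (SD, n = 3). Nectin2 and Nectin4 had the lowest differences of the list, -0.32 and -0.21 (limma adjusted p = 0.643 and 0.707), which went to -0.12 and -0.31 without control arrays 1 and 2. Cadm3 and Afdn differed by -0.11 and 0.15, and the signs of both turned without control array 1 (0.016 and -0.11). Without control arrays 1 and 2 they were 0.17 and 0.082.

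The SLAM family, receptors that mostly bind themselves, held the highest difference of the 75 genes. Of its 9 measured genes, 4 had higher and 5 lower means, with a median of -0.11. Cd244a codes for 2B4, a receptor of natural killer cells and some T cells for CD48. It measured 5.56, 6.20 and 5.72 in control and 7.36, 7.26 and 6.91 in RANKL-deficient arrays. The groups did not overlap, and the means of 5.83 ± 0.34 (SD, n = 3) and 7.18 ± 0.24 (SD, n = 3) lay 2.55-fold apart. The difference of 1.35 (SE 0.21, limma adjusted p = 0.245) did not pass the adjusted threshold, and adjusted p ranged from 0.206 to 0.702 over the alternatives, while the difference stayed between 1.21 and 1.54. The gene of its ligand, Cd48, differed by -0.31 (adjusted p = 0.783). The natural killer and ILC1 markers, whose summed levels are given above, had a median difference of -0.16. Their part in the Cd244a difference was not tested. Slamf9, Slamf1 and Slamf7 differed by -0.43, -0.35 and 0.21 (adjusted p = 0.621, 0.646 and 0.680). Without control arrays 1 and 2, Slamf1 went to -0.011 and Slamf9 to -0.70, and Slamf1 was -0.22 without control array 1.

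Of the 20 genes for junctional, leukocyte and endothelial molecules, 7 had higher and 13 lower means, with a median of -0.11. Jaml, a junctional adhesion molecule of leukocytes that binds CXADR on epithelium, measured 6.71, 6.55 and 7.36 in control and 7.44, 7.84 and 7.63 in RANKL-deficient arrays. The groups did not overlap, but control array 3 lay just below the lowest RANKL-deficient array. The difference of 0.77 (SE 0.23, limma adjusted p = 0.517) was 0.28 without control arrays 1 and 2. Its partner gene Cxadr differed by 0.083. Cd47, which signals to phagocytes through SIRPA, differed by -0.22, Esam by -0.29 and Thy1 by 0.21 (adjusted p = 0.670, 0.684 and 0.684). Cd47 went to -0.11 and Esam to -0.42 without control arrays 1 and 2, and Esam to -0.18 without RANKL-deficient array 1.

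Genes of the L1, NCAM and contactin groups and other nerve cell adhesion molecules included the lowest differences. Of 24 measured, 21 had lower means, with a median of -0.11, where 60.5% of all genes had a lower mean. That share is not matched for level, since only Cntn1, Dscam and Cdon had both group means above the median gene. Genes above the median level had a median difference of 0.033, against -0.054 over all genes, so nothing is read from the count. The summed level of the enteric neuron and glia markers given above also ran lower on every RANKL-deficient array, though the ranges nearly met. S100b alone of these markers did not overlap between groups. The part of these markers in the values of the list was not tested. Dscam, a homophilic receptor of developing neurons, measured 6.91, 7.84 and 7.93 in control and 5.57, 6.00 and 5.62 in RANKL-deficient arrays. Its groups did not overlap, and the difference of -1.83 (SE 0.29, limma adjusted p = 0.245) was -2.20 without control arrays 1 and 2. Cdon, a coreceptor of Hedgehog signalling, measured 6.43, 6.21 and 6.10 in control and 4.99, 4.96 and 5.48 in RANKL-deficient arrays. The difference was -1.11 (SE 0.18, adjusted p = 0.257). Dscam and Cdon were known from earlier results when the list was written, so they lend nothing to the list. Igsf9 differed by -0.36 and the contactin gene Cntn1 by -0.29 (adjusted p = 0.597 and 0.646), and Igsf9 went to -0.16 without control arrays 1 and 2. The close relatives of L1cam and Ncam1, Chl1, Nrcam, Nfasc and Ncam2, differed by -0.088, 0.028, 0.11 and -0.0061, with no adjusted call.

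The laminin genes that code for ligands of MCAM and BCAM, Lama4, Lama5, Lamb1 and Lamc1, had differences of -0.16, -0.16, -0.12 and -0.082 (limma adjusted p = 0.749, 0.781, 0.833 and 0.864). These genes code for matrix proteins, and none passed. Lama5 and Lamb1 turned to 0.12 and 0.055 and Lamc1 went to -0.022 without control arrays 1 and 2.

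**Figure D4:**
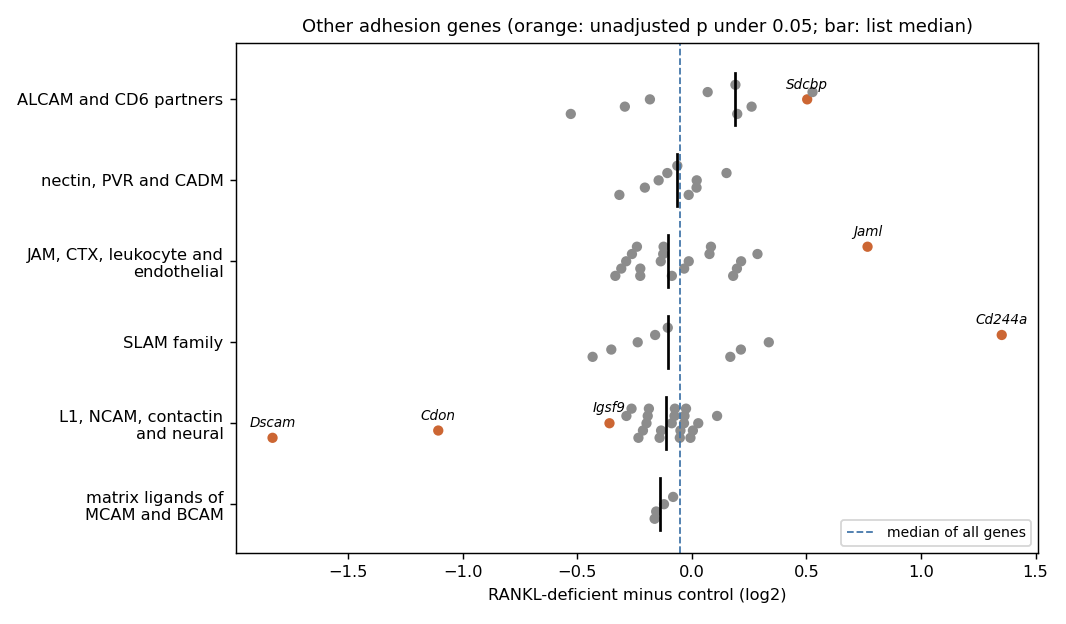
Difference between group means (RANKL-deficient minus control, log2) for the 75 other adhesion genes in 6 lists, 1 point a gene, with the list medians as bars and the median of all genes (-0.054) as a dashed line. Orange points, with an unadjusted limma p under 0.05, are Sdcbp, Jaml and Cd244a on the higher side and Dscam, Cdon and Igsf9 on the lower side.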

How the data were processed

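Each sample of sorted CCR6+ ILC3s was hybridised to an Affymetrix array. Per the submitters' processing notes, the authors used RMA and Affymetrix Expression Console; the deposited values are on a log2 scale, as read from their range. Versions and the genome build are not stated in these sources. RMA equalises intensities between arrays and so hides any shift of all genes. The small number of arrays limits the precision.

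Of 35556 probe sets, 21789 had 1 gene symbol in the platform annotation. Symbols were updated by Entrez identifier for 19855 of 19938 genes, and the probe set with the highest mean stood for a gene (999 had more than 1). No filter was applied. The gene that drives the Cre is not reported here. Groups came from the sample titles and were compared by limma (version 3.58.1, under R 4.3.3; lmFit, then eBayes; no block). Tests were two-sided, p-values were adjusted by Benjamini-Hochberg across the 19938 genes, and the threshold was 0.05. The fit was tested on simulated data. Since the labels name no separate mice, p-values measure only the spread between samples, which may be technical. Members and lists were chosen with earlier results of these data known. Named genes were all members, the 4 genes of each list with the smallest unadjusted p, the 5 genes nearest to Alcam, Tnfsf11 and Ccr6, and others named here were chosen after their values were seen. Alternatives changed the scaling, probe set rule, filter, moderation, weights, block and arrays.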

Additional observations from a re-analysis of the deposited data

How the results depend on the processing

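The number of genes past the adjusted threshold, 1 in the comparison as reported, was 0 when all probe sets were tested, 0 without control arrays 1 and 2, and 2 with the trend and robust options, and 0 to 1 when any 1 array was left out. With the replicate block it was 0. Deviations of same-numbered arrays correlated at -0.023, 0.050 and 0.027 across genes, so no shared effect of the replicate number was seen. The labels do not say whether same-numbered samples shared a mouse or day, and these correlations cannot settle it. The 75 list genes had 0 calls in every setting. Alcam, Mcam, L1cam, Ncam1, Crtam, Cd96 and Cd226 kept their direction in all alternatives run. Of these, the block, filter, probe set and moderation alternatives could not move a member's difference. Each member had 1 probe set, replicate numbers were balanced between groups, and filter and moderation leave a difference of means unchanged. Only scaling, weights and left-out arrays could move a member's difference. Leaving out control arrays 1 and 2 together moved 7 members by more than their replicate SD: Cd6 to 0.29, Mcam to -0.80, Bcam to 0.075, Ncam1 to -0.13, Cadm1 to -0.19, Cd96 to -0.14 and Cd226 to 0.76. In the same setting Cadm3, Lama5 and Lamb1 turned to 0.17, 0.12 and 0.055. With 1 array left out, Cadm3 ran from -0.25 to 0.016 and Afdn from -0.11 to 0.38, and array weights turned Afdn to -0.020. The cause of these changes was not tested.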
